A study of Mus musculus with 22 samples.

Results

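Microglia of middle-aged female and male mice were compared across autosomal genes. They had been sorted from whole brain of C57BL/6J mice as CD11b+CD45lowLin- cells, and 5 female and 5 male libraries came from untreated mice of 50 to 54 weeks, titled 52 weeks. These are 10 of the 22 libraries of the series, which also holds 3 female and 3 male libraries each from untreated mice of 6 to 10 weeks (titled 8 weeks) and of 96 to 104 weeks (titled 104 weeks). The titles of all 22 libraries also carry SPF, commonly short for specific pathogen free. The sources used here do not say whether a library held cells of 1 animal or of pooled animals. A gene was tested if its normalized count was 10 or more in at least 3 of the 22 libraries, which 12099 of the 17371 autosomal genes in the table reached. Genes of the sex chromosomes served only to check the labels. The libraries of the other ages add to the estimate of the spread, and they are described only where the sex difference at 52 weeks is set beside that at another age.

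Microglia are the resident macrophages of the brain. They survey the tissue with motile processes, take up synapses, debris and dying cells, and break this material down in lysosomes. In the healthy brain they carry a set of transcripts, called homeostatic genes, that most other macrophages lack or hold at low levels, and much of that set is known to fall when microglia respond to injury or plaques.

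The labels were first checked on the sex chromosomes and on markers of cell types. Xist, the RNA that silences an X chromosome in females, was at most 5.80 normalized counts in the males and at least 2321 in 4 females, and was 42.4 in female replicate 2. The Y-linked genes Eif2s3y, Kdm5d and Uty were at 0 in every female, replicate 2 included, and at 218 or more in every male. The highest sum of the 25 homeostatic microglia genes in the table equalled 14.3% of the largest normalized total among females and 13.2% among males. None of these genes was at 0 in all 10 libraries. Of 13 neutrophil markers 9 were in the table, with Retnlg, Mmp9 and Elane at 0 in all 10 libraries. Their sum was 9985 to 14427 in the females and 7501 to 9891 in the males. The highest sum equalled 0.0592% of the largest normalized total among females, which was that of another library. Most of the sum was Csf3r, a cytokine receptor gene (9982 to 12466 and 7501 to 9891). The granule genes S100a8, S100a9 and Ltf set female replicate 2 apart, at 678, 652 and 644, against at most 3.46 in the other 9 libraries. B cell markers (4 of 9 in the table, Ms4a1 at 0 throughout) summed to 908 to 1352 and 657 to 793, nearly all of it Cd79b (908 to 1349 and 655 to 792). Oligodendrocyte markers (12 of 12) summed to 5113 to 5588 and 3836 to 4488, most of it Cnp (3056 to 3570 and 2415 to 2833). Csf3r, Cd79b and Cnp were thus higher in every female than in every male, and the part of such cells in the sex differences below was not tested. The sums of the marker lists of T and NK cells, red blood cells, rod photoreceptors, and mural cells with fibroblasts were at most 56.1 in every library. On the leading principal component, which held 27.0% of the variance among the 10 libraries, the females lay between -42.4 and -33.9 and the males between 21.9 and 46.8, with male replicate 3 nearest to the females. Counts were therefore also made without female replicate 2 and male replicate 3, a choice made after seeing the data. Reads per library ranged from 18.5 to 34.4 M in the females and from 24.3 to 34.1 M in the males.

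At 52 weeks, 2621 of the 12099 autosomal genes differed between the sexes (21.7%; limma, Benjamini-Hochberg adjusted p under 0.05). Of these, 1280 were higher in females (10.6%) and 1341 were lower (11.1%). The directions differed in size, since 39 of the genes called were at least 2-fold higher in females and 516 at least 2-fold lower, with median log2 differences of 0.39 and -0.84. In 1963 genes (16.2%) the 5 female and the 5 male values did not overlap, with 936 of them higher in females (7.74%) and 1027 lower (8.49%). Without female replicate 2 and male replicate 3, 2378 genes passed, 1165 higher and 1213 lower. The split between directions depended on the scaling. The authors' normalized counts summed to 23.2 to 24.4 M in the females and 20.7 to 22.4 M in the males. With every library rescaled to the same total, the median log2 difference of all autosomal genes moved from -0.0020 to -0.16, and 454 genes were higher in females against 2348 lower. With trends of transcript length and GC content removed, 2004 were higher and 914 lower. Counts for gene groups are therefore given under equal totals too and, for most groups, with the trends removed.

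**Figure D1:**
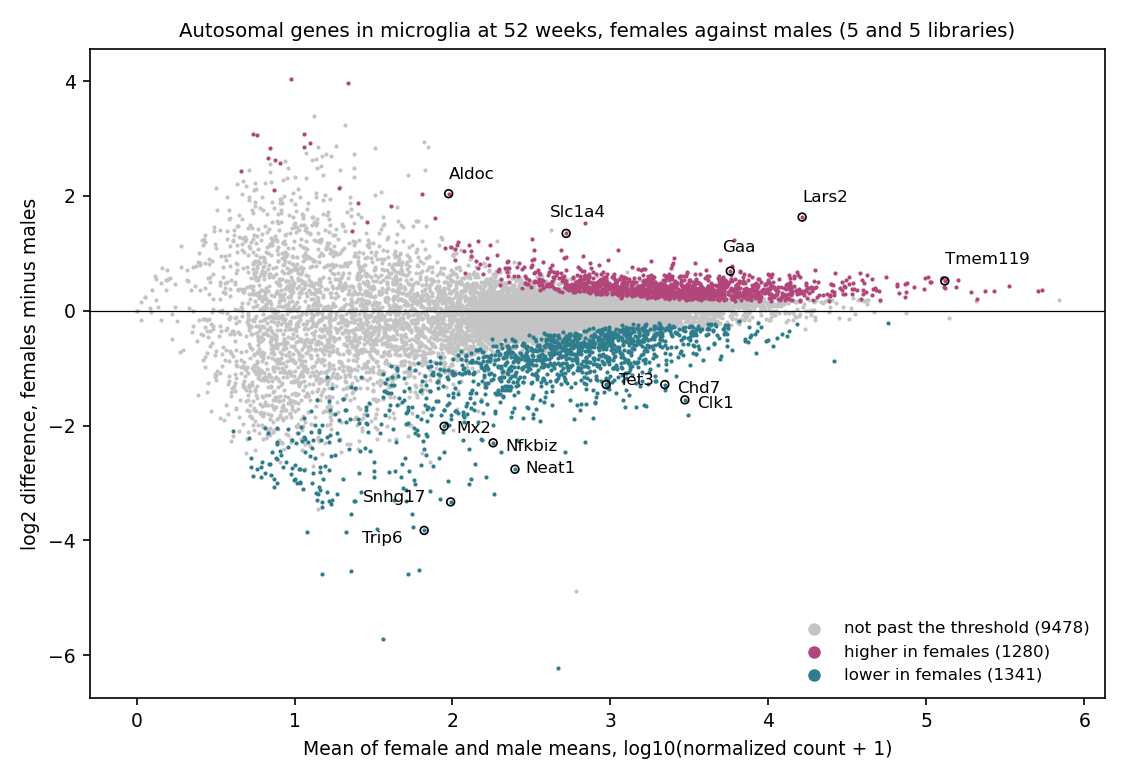
Each point is an autosomal gene at 52 weeks, with the mean of its female and male means on the horizontal axis (log10 of the normalized count plus 1) and the log2 difference, females minus males, on the vertical axis. Genes called higher in females (1280) had a median difference of 0.39 and genes called lower (1341) one of -0.84, with some genes of the text circled, and under equal totals the calls were 454 and 2348.

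Lysosomal genes were the most uniform group on the female side. Of 42 tested, 37 were higher in females and none was lower, with a median log2 difference of 0.40. Under equal totals 28 were higher and none lower (median 0.24), and without female replicate 2 and male replicate 3 36 were higher and none lower. With the trends removed the counts were 37 and none. In 29 of the 42 every female value lay above every male value. Gaa, Lgmn and Man2b1 were among the genes of this list with the smallest adjusted p. Gaa encodes acid alpha-glucosidase, which breaks down glycogen in lysosomes, and lies on chromosome 11 between bases 119267887 and 119285454 of GRCm38. Its normalized counts were 6817, 6544, 6520, 7250 and 8276 in the females and 4163, 4238, 5089, 4027 and 4393 in the males, in the order of replicates 2 to 6 for females and 1 to 5 for males here and below. Every female lay above every male, and the log2 difference was 0.69 ± 0.08 (SE), a 1.62-fold higher level (adjusted p = 9.9e-07). Lgmn encodes legumain, an endopeptidase that processes cathepsins and antigens, on chromosome 12 between bases 102394084 and 102439813. It stood at 118005, 129065, 126621, 126114 and 117515 in the females and 88984, 84869, 89244, 85871 and 87009 in the males. The males lay in a narrow band below all the females, with a difference of 0.50 ± 0.06 (adjusted p = 2.3e-06). Man2b1, a lysosomal alpha-mannosidase, averaged 46514 ± 2617 in females and 32069 ± 2122 in males (SD, n = 5 each), and the groups did not overlap (adjusted p = 6.3e-06).

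Promoters are shown because the lysosomal genes moved together and because many lysosomal genes are known to carry an E-box bound by TFEB and related factors. The 250 bases before the annotated start of RefSeq promoters (GRCm38.p6) were searched, and 32 of the 42 lysosomal genes and 9391 of the 12099 autosomal genes matched an entry. A gene counted as holding a motif if any of its promoter entries held it. CACGTG, which reads the same on both strands, was in 34.4% of the lysosomal genes matched (11 of 32) and in 10.0% of all genes matched. The longer TCACGTG, or CACGTGA on the other strand, was in 28.1% (9 of 32) against 5.74%. TCACGTGA, which lies within both searches above, was in 9.38% (3 of 32) against 1.81%. Of the 31 chromatin genes matched, from a group lower in females described below, 6.45% held TCACGTG or CACGTGA. A match describes letters in this window only. The promoters of 4 lysosomal genes with TCACGTG or CACGTGA are printed 5′ to 3′ on the strand of the gene, with the motif in capitals. They were chosen by smallest p for the sex difference, in a choice that did not cover every autosome.
Gaa, chr11:119267713-119267962, plus strand: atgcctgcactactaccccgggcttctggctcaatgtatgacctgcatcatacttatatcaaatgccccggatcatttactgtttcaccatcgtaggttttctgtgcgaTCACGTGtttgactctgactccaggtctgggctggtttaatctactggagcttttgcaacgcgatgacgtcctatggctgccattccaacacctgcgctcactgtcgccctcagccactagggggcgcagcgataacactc
Lgmn, chr12:102439093-102439342, minus strand: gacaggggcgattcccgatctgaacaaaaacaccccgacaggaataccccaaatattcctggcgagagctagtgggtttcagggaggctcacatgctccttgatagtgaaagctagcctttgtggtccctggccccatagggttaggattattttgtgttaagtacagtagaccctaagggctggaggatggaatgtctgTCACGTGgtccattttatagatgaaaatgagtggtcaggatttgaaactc
Glb1, chr9:114400828-114401077, plus strand: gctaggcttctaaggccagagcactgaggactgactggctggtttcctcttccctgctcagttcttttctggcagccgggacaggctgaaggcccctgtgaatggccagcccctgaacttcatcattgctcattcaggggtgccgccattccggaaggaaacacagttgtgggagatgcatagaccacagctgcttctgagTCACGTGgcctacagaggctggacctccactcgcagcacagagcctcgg
Ctsa, chr2:164833523-164833772, plus strand: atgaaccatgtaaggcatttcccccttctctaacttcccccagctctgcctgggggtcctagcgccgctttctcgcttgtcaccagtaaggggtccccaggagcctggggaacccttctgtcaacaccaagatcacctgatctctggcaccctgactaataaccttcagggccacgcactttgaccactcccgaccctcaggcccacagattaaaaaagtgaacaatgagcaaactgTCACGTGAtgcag
The motif begins 141 bases before the start in Gaa, 50 in Lgmn, 49 in Glb1 and 13 in Ctsa, whose promoter holds TCACGTGA. The Lgmn and Ctsa windows lie within the annotated spans of these genes (bases 102394084 to 102439813 and 164832873 to 164841032). Each of these 2 windows thus precedes a start inside the gene. Glb1, the lysosomal beta-galactosidase, averaged 3611 ± 358 in females and 2376 ± 167 in males (SD, n = 5 each, adjusted p = 1.7e-05). Ctsa, a carboxypeptidase that protects that enzyme, averaged 53441 ± 4402 in females and 40743 ± 2944 in males (adjusted p = 0.00011). Neither overlapped between the sexes, and both were chosen for their promoters after their values were seen.

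Homeostatic genes were higher in females in part. Of 24 tested, 13 were higher, 1 was lower and 10 did not pass, with a median of 0.20. Under equal totals 10 were higher and 2 lower (median 0.03), and with length and GC trends removed 18 and 1. Tmem119, a membrane protein that marks microglia, lies on chromosome 5 between bases 113793729 and 113800516. Its normalized counts were 139118, 154275, 151736, 164913 and 159334 in the females and 117579, 102813, 111832, 102775 and 101795 in the males. The groups did not overlap, with a difference of 0.52 ± 0.07 (1.43-fold, adjusted p = 4.7e-06). Olfml3, a secreted glycoprotein, stood at 117035, 106024, 113578, 127948 and 122125 in the females and 76991, 74705, 86130, 77015 and 81388 in the males. It too had no overlap, with a difference of 0.57 ± 0.06 (adjusted p = 4.1e-07). Slc2a5, a fructose transporter, was at 46335, 44709, 47305, 45982 and 48099 in the females and 29898, 29355, 30972, 27967 and 28502 in the males. Its 1.59-fold difference was again without overlap (adjusted p = 7.9e-07). Fcrls, an Fc receptor-like protein, was 1.51-fold higher in females (adjusted p = 2.0e-06). Csf1r, the receptor for the survival factor CSF1, was 1.35-fold higher (adjusted p = 0.00017).

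The fractalkine and ADP receptors of this set did not pass. Cx3cr1, the fractalkine receptor, was at 123433, 142790, 137545, 126822 and 130976 in the females and 130416, 143445, 168008, 143699 and 139366 in the males. The groups overlapped, with a difference of -0.13 ± 0.07 (adjusted p = 0.21), and under equal totals Cx3cr1 passed as lower in females at -0.29. P2ry12, the ADP receptor that guides microglial processes, was at 215990, 218440, 224810, 224152 and 200606 in the females and 170177, 192476, 238086, 181777 and 188145 in the males. Male replicate 3 was the highest of all 10, and the difference of 0.17 ± 0.08 (adjusted p = 0.13) passed at 0.24 without that library. Tgfbr1, a receptor for TGF-beta, which maintains the homeostatic state, averaged 66586 ± 7832 in females and 44346 ± 3290 in males without overlap (adjusted p = 3.6e-05). Among 28 purinergic receptors and ion channels, 10 were higher and 1 was lower, or 5 and 1 under equal totals and 11 and none with the trends removed. The potassium channel gene Kcnk13 averaged 5700 ± 505 in females and 3821 ± 182 in males (adjusted p = 5.0e-06).

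Complement genes and receptors for uptake were also higher in females where they differed. Of 15 complement genes 8 were higher and none lower (median 0.42), or 6 higher and 1 lower under equal totals and 9 and none with the trends removed. Of 25 phagocytic and scavenger receptors 11 were higher and 1 lower (median 0.28), or 3 and 2 under equal totals and 16 and none with the trends removed, and 7 were higher without male replicate 2. C1qa, a chain of the C1q complex that tags synapses and debris, was at 134711, 140904, 153077, 164490 and 155454 in the females and 112580, 89840, 106940, 98740 and 98108 in the males. The groups did not overlap, with a difference of 0.57 ± 0.07 (adjusted p = 5.1e-06). C1qc, another chain, differed by 0.54 ± 0.07 (adjusted p = 5.5e-06). C5ar1, the receptor for the fragment C5a, was 1.61-fold higher in females and C3ar1, the receptor for C3a, 1.52-fold (adjusted p = 9.2e-06 and 4.6e-05). C3, the central complement protein, was low and scattered, at 143, 52.7, 43.4, 232 and 39.3 in the females and 38.4, 3.66, 18.4, 15.9 and 46.7 in the males. The groups overlapped, the difference of 2.03 ± 0.69 passed narrowly (adjusted p = 0.039), and the call was lost without female replicate 2 or 5 or male replicate 2, 3 or 4.

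Itgb5, an integrin chain used in the uptake of dying cells, was at 85372, 90222, 86053, 92091 and 85275 in the females and 62510, 60295, 66882, 62881 and 61832 in the males. The groups lay well apart, with a difference of 0.48 ± 0.05 (adjusted p = 3.5e-07). Cd68, a glycoprotein of late endosomes and lysosomes, averaged 34472 ± 3315 in females and 25592 ± 1482 in males (adjusted p = 9.8e-05). Sirpa, the receptor for the CD47 signal that restrains uptake, averaged 109030 ± 6399 in females and 83625 ± 5212 in males (adjusted p = 0.00045). Of 22 genes of toll-like receptor signalling 6 were higher and 2 lower, or 4 and 4 under equal totals and 9 and 1 with the trends removed. Tlr3, a sensor of double-stranded RNA, was at 3785, 4890, 4283, 4903 and 4227 in the females and 2218, 2528, 2830, 2531 and 2274 in the males. It was 1.78-fold higher in females without overlap (adjusted p = 6.3e-07). Unc93b1, which carries intracellular toll-like receptors to endosomes, was 1.53-fold higher (adjusted p = 8.9e-06). Cd22, an inhibitory lectin that binds sialic acid and is also known from B cells, averaged 1516 ± 222 in females and 729 ± 143 in males (2.10-fold, adjusted p = 1.1e-05). Fewer cells with a transcript and less of it per cell cannot be told apart in these bulk libraries.

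Among the larger differences on the female side were genes of translation, transport and the cytoskeleton. Lars2, the mitochondrial leucyl-tRNA synthetase, lies on chromosome 9 between bases 123366927 and 123462666. It was at 26274, 18951, 30963, 21779 and 25759 in the females and 9089, 7729, 6637, 7434 and 8717 in the males. The lowest female was more than 2-fold above the highest male, and the difference was 1.63 ± 0.14 (3.10-fold, adjusted p = 2.5e-08). Slc1a4, a transporter of neutral amino acids, was at 873, 929.8, 574, 522 and 811 in the females and 147, 389.7, 433, 227 and 323 in the males. It was 2.55-fold higher in females without overlap (adjusted p = 1.0e-04). Slc7a1, a transporter of cationic amino acids, averaged 443 ± 79.1 in females and 189 ± 56.3 in males (2.38-fold, adjusted p = 3.6e-05). Cotl1, an actin-binding protein, averaged 8463 ± 1924 in females and 3568 ± 795 in males (2.36-fold, adjusted p = 0.00023). Slc46a1, a folate transporter, was 1.71-fold higher and Itm2c, a membrane protein, 1.58-fold (adjusted p = 1.2e-07 and 2.1e-08).

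Of 24 glycolysis genes 13 were higher in females and none was lower, with a median of 0.35, and under equal totals 6 were higher and none lower, or 14 and none with the trends removed. Hk2, a hexokinase, averaged 3714 ± 474 in females and 2380 ± 463 in males (adjusted p = 0.00016), and its groups overlapped through male replicate 1 at 3151 and female replicate 2 at 2995. Pkm, a pyruvate kinase, averaged 4469 ± 346 in females and 3439 ± 399.7 in males without overlap (adjusted p = 0.00098). Aldoc, an aldolase, was at 270.4, 80.4, 260.3, 75.2 and 74.8 in the females and 53.6, 33.5, 31.2, 47.6 and 8.65 in the males. Female replicates 2 and 4 stood far above the other females, and the level was 4.11-fold higher in females without overlap (adjusted p = 0.0051). Aldoc is also an astrocyte marker, and it was the 1 of 9 astrocyte markers tested that passed. Astrocyte markers, 10 of 10 in the table and none at 0 in all 10 libraries, summed to 6907 to 7912 in the females and 6289 to 7661 in the males. The astrocyte marker Gfap was at 48.1 and 43.4 in female replicates 2 and 4, where Aldoc was highest, at 3.18 to 32.9 in the other females and at 0 to 16.7 in the males. Other astrocyte markers did not follow this order. Aldh1l1 was at 65.3 and 12.8 in female replicates 2 and 4, at 61.7 to 114 in the other females and at 0 to 97.4 in the males. Sox9 was at 4.58 or less in the females and at 0 to 15.2 in the males. A median of log2(value + 1) was taken over the 9 markers tested, Aldoc included, each centred on its mean over the 10 libraries. It was highest in female replicates 2 and 4, at 1.05 and 2.06, against 0.12 or less in the others. The part of astrocytes in the Aldoc difference was not tested.

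**Figure D2:**
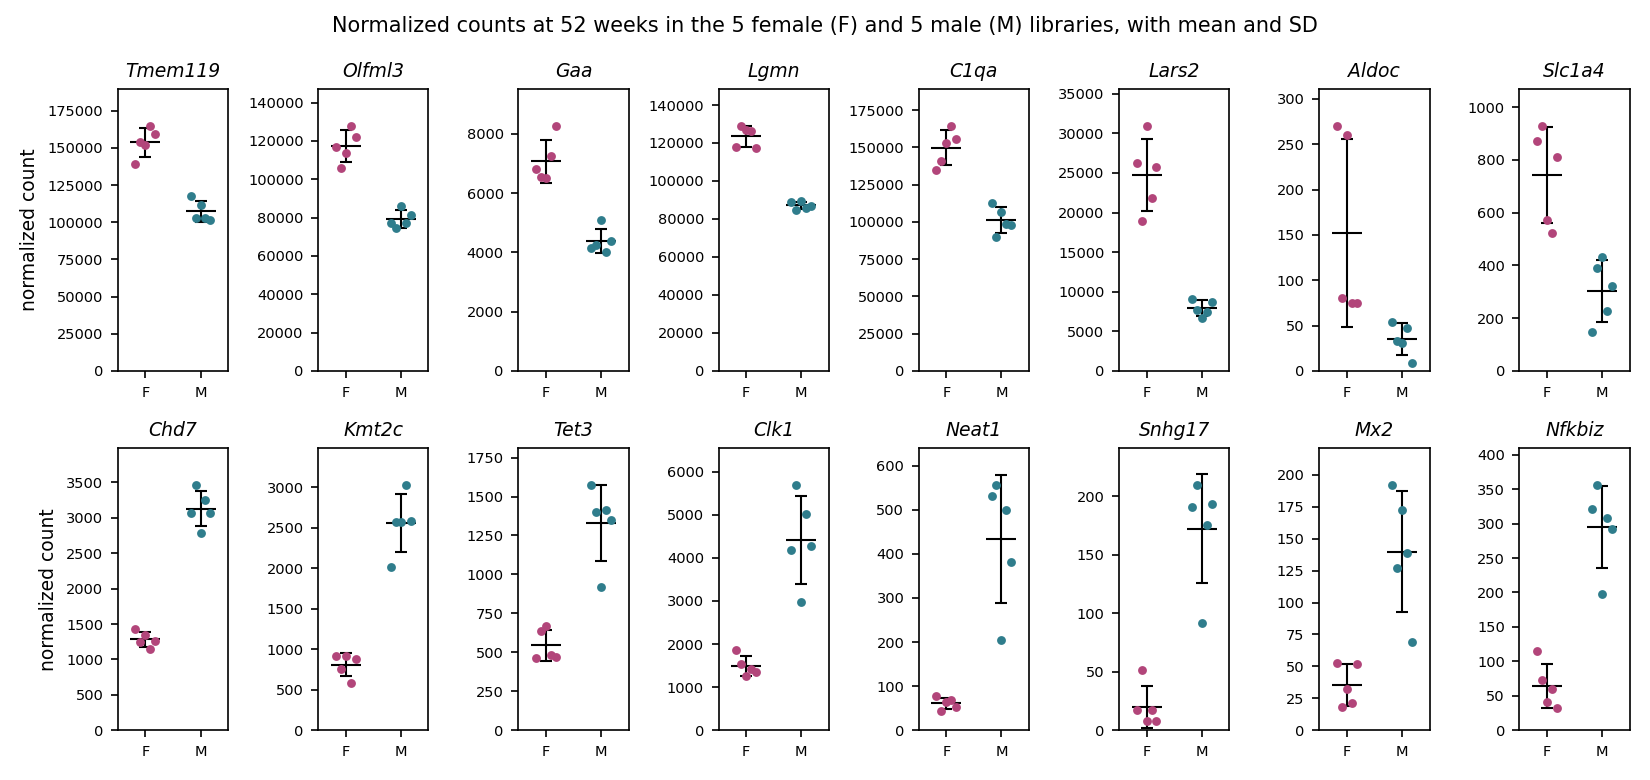
Normalized counts of 16 genes in the 5 female (F) and 5 male (M) libraries at 52 weeks, each panel with its own linear axis from 0, where points are libraries, the long bar is the mean and the whiskers are the SD. Genes higher in females fill the upper row and genes lower in females the lower row, and the female and male points overlap in none of the 16.

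Chromatin regulators were a group lower in females. Of 48 histone modifiers and chromatin remodellers tested, 26 were lower and none was higher, with a median of -0.60. Under equal totals 34 were lower and none higher, with length and GC trends removed 20 and 1, and without female replicate 2 and male replicate 3 23 and none. Chd7, a chromodomain helicase, had the smallest adjusted p of all autosomal genes and lies on chromosome 4 between bases 8690406 and 8867659. It was at 1424, 1243, 1344, 1140 and 1267 in the females and 3068, 3464, 2788, 3251 and 3074 in the males. The groups lay far apart, with a difference of -1.29 ± 0.09, 2.44-fold higher in males (adjusted p = 5.8e-10). Kmt2c, a methyltransferase that marks histone H3 at enhancers, was at 917, 754, 919, 579 and 878 in the females and 2016, 2570, 2575, 3028 and 2579 in the males. It was 3.17-fold higher in males without overlap (adjusted p = 1.7e-08). Tet3, which oxidises methylated cytosine, was at 463, 639, 669, 484 and 469 in the females and 1574, 1401, 922, 1411 and 1347 in the males. Male replicate 3 was the lowest male and still above every female (2.44-fold, adjusted p = 5.2e-07). Ash1l, another histone H3 methyltransferase, averaged 949.6 ± 165 in females and 2204 ± 299.6 in males (adjusted p = 5.6e-07). Smg1, a kinase of nonsense-mediated decay that belongs to no list here, was at 308, 243, 203, 184 and 226 in the females and 888, 1325, 839, 1345 and 1322 in the males. It was 4.87-fold higher in males (adjusted p = 6.2e-08).

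Splicing factors were lower in females more often than higher. Of 40 tested, 19 were lower and 4 higher (median -0.29), or 25 and 1 under equal totals and 12 and 8 with length and GC trends removed. Clk1, a kinase of splicing factors, was at 1868, 1537, 1257, 1427 and 1356 in the females and 4176, 5691, 2965, 5026 and 4265 in the males. Males were 2.93-fold higher without overlap (adjusted p = 2.1e-07), and male replicate 3 was the lowest male. Its relative Clk4 averaged 546 ± 77.7 in females and 1378 ± 226 in males (adjusted p = 6.3e-06). Hnrnpa2b1, which binds nuclear RNA, averaged 4535 ± 276 in females and 7290 ± 560.1 in males (adjusted p = 9.0e-07), and Snrnp70, a component of the U1 particle, 865 ± 69.8 and 1449 ± 212 (adjusted p = 9.2e-06).

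Long non-coding RNAs that differed were lower in females. Of 463 autosomal genes annotated so, 106 were lower (22.9%) and none was higher (median -0.66), under equal totals 128 were lower and none higher, and with length and GC trends removed 77 were lower and 4 higher. Among 11523 protein-coding genes 1280 were higher and 1202 lower (median 0.01). Of 12 host genes of small nucleolar RNAs 8 were lower and none higher, with a median of -1.73, or 9 and none under equal totals and 6 and none with the trends removed. Both classes were chosen after their values were seen. Neat1, the RNA that builds nuclear paraspeckles, lies on chromosome 19 between bases 5824708 and 5845478. It was at 76.8, 43.7, 63.8, 67.8 and 51.95 in the females and 531, 556, 205, 499.6 and 381 in the males. Every male was more than 2-fold above the highest female, with a difference of -2.76 ± 0.30 (6.77-fold higher in males, adjusted p = 6.3e-07). The host gene Snhg17 was at 17.2, 51.3, 7.66, 16.9 and 7.60 in the females and 191, 209.8, 91.9, 176 and 194 in the males. It was 10.0-fold higher in males (adjusted p = 8.0e-05). The host gene Snhg1 averaged 20.1 ± 8.87 in females and 115 ± 33.3 in males (5.71-fold, adjusted p = 3.9e-05). Male replicate 3 was the lowest male for Neat1, Snhg17 and Snhg1. The library kit does not mark strand, so reads of these genes and of genes on the other strand cannot be told apart.

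Other large differences on the male side were in genes of varied roles. Trip6, an adaptor protein of focal adhesions, was at 5.73, 18.01, 12.8, 8.47 and 0 in the females and 197, 122, 20.8, 122 and 144 in the males. Male replicate 3 lay just above the highest female and the other males far above, with a difference of -3.82 ± 0.72 (adjusted p = 0.00042). Vamp1, a protein of vesicle fusion, was at 19.5, 36.7, 102, 24.4 and 20.3 in the females and 349, 369, 178, 469 and 246 in the males. Female replicate 4 was the highest female and the groups did not overlap (9.11-fold, adjusted p = 1.1e-05). Per3, of the circadian clock, averaged 174 ± 32.5 in females and 342 ± 49.3 in males (adjusted p = 0.00050). In its list of 20 clock genes 2 were higher in females and 4 lower, or none and 5 under equal totals and 1 and 2 with the trends removed.

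Stress and NF-kB genes moved in both directions. Of 29 heat shock and unfolded protein response genes 9 were higher in females and 4 lower, or 4 and 6 under equal totals and 11 and 4 with the trends removed. Calr, a chaperone of the endoplasmic reticulum, averaged 28832 ± 527 in females and 20979 ± 1322 in males (adjusted p = 1.0e-06). Bag3, a partner of the heat shock protein HSP70, averaged 657 ± 94.5 in females and 314 ± 51.3 in males (2.09-fold, adjusted p = 7.0e-05). Atf4, the transcription factor of the integrated stress response, was at 2022, 2100, 1637, 2046 and 1933 in the females and 3436, 3467, 3508, 3398 and 3230 in the males. It was lower in females without overlap (difference -0.81 ± 0.09, adjusted p = 9.6e-07). Ddit3, a known target of it, averaged 253 ± 50.7 in females and 492.7 ± 29.6 in males (adjusted p = 0.00012). Of 24 NF-kB genes 5 were higher and 5 lower, or 3 and 10 under equal totals and 5 and 4 with the trends removed. Rela, the p65 subunit, was 1.34-fold higher in females (adjusted p = 7.0e-05). Nfkbiz, an inducible nuclear regulator of the pathway, was at 115, 73.4, 40.8, 60.4 and 31.7 in the females and 322, 356, 198, 309 and 292 in the males. It was 4.92-fold higher in males without overlap (adjusted p = 7.5e-06).

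Interferon and cytokine genes differed in few members. Of 33 type I interferon genes 5 were lower in females and none was higher (median -0.30), under equal totals 7 were lower and none higher, and with length and GC trends removed 4 were lower and 1 higher. Without female replicate 2 and male replicate 3, 3 were lower and 2 higher, and the median was 0.15. Mx1, a gene of the Mx GTPase family, was at 39.0, 32.6, 17.9, 29.7 and 20.3 in the females and 225, 202, 281, 211 and 204 in the males. It was 8.06-fold higher in males (adjusted p = 0.00015). Mx2, its relative, annotated as a polymorphic pseudogene, was at 52.7, 18.01, 31.9, 21.2 and 51.95 in the females and 192, 127, 173, 139 and 69.2 in the males. Neither gene overlapped between the sexes, and Mx2 was 4.03-fold higher in males (adjusted p = 0.00047). Mx1 and Mx2 are similar in sequence, and the sources used here do not say how shared reads were counted. Stat2, which carries the interferon signal to the nucleus, was 1.51-fold higher in males (adjusted p = 0.0081). Of 21 cytokines and chemokines 2 were higher and 1 lower, or 1 and 4 under equal totals and 2 and none with the trends removed. Il1b averaged 123 ± 31.5 in females and 164 ± 47.4 in males and Tnf 46.5 ± 14.7 and 88.8 ± 52.7, and neither passed (adjusted p = 0.34 and 0.53).

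Of 26 genes known from microglia around plaques, called disease-associated, 8 were higher in females and none was lower (median 0.31), or 4 and none under equal totals and 11 and none with the trends removed. Several of those that passed stand in the lysosomal list too. Ctsz, a cathepsin, averaged 75278 ± 7846 in females and 55380 ± 2051 in males, and Cd63, a tetraspanin of late endosomes, 6042 ± 949 and 4244 ± 519 (adjusted p = 1.7e-05 and 0.00073). Ctsb, another cathepsin, averaged 149810 ± 9766 in females and 113760 ± 15422 in males (adjusted p = 0.00018), and its groups overlapped through male replicate 3 at 141316. Apoe, a lipid carrier, was at 5496, 8812, 3679, 13212 and 10606 in the females and 9003, 7373, 10748, 8824 and 7572 in the males. The groups overlapped, with a difference of -0.19 ± 0.27 (adjusted p = 0.68) that was 0.074 without female replicate 4. Spp1, osteopontin, was at 374, 184, 254, 1257 and 1015 in the females and 119, 68.3, 328, 148 and 429 in the males. Female replicate 5 was the highest library for both Apoe and Spp1, and the difference of Spp1 did not pass (adjusted p = 0.11). Clec7a, the receptor dectin-1, averaged 1469 ± 382 in females and 1215 ± 368 in males (adjusted p = 0.34), and it passed at 0.54 without female replicate 2 and male replicate 3.

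Of 14 genes of MHC class I presentation 4 were higher in females and none lower, or 1 and none under equal totals and 6 and none with the trends removed. Tapbp, which helps load peptides, was at 18118, 19501, 19061, 19477 and 19477 in the females and 12610, 12269, 13488, 12687 and 12310 in the males. It was 1.51-fold higher in females without overlap (adjusted p = 2.0e-07). The class I molecule H2-D1 averaged 9497 ± 2235 in females and 7504 ± 1810 in males (adjusted p = 0.11), and it passed without female replicate 2 (0.46) or male replicate 3 (0.47). Genes of the H2 family are similar in sequence, so their counts are uncertain. Of 34 cell cycle genes 2 were higher in females and 5 lower, or 1 and 9 under equal totals and 4 and 4 with the trends removed. Mcm3, part of the replicative helicase, averaged 2691 ± 271 in females and 1814 ± 179.8 in males (adjusted p = 7.8e-05), and the cyclin Ccna2 66.4 ± 32.4 and 152 ± 45.7 (adjusted p = 0.013). Bub1, of the mitotic checkpoint, was at 4.58, 9.01, 5.11, 33.9 and 12.7 in the females and 17.4, 116, 39.1, 78.5 and 175 in the males. It passed as lower in females although the groups overlapped (adjusted p = 0.013). Esr1, the estrogen receptor alpha, averaged 212 ± 64.4 in females and 168 ± 54.0 in males and did not pass (adjusted p = 0.45).

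**Figure D3:**
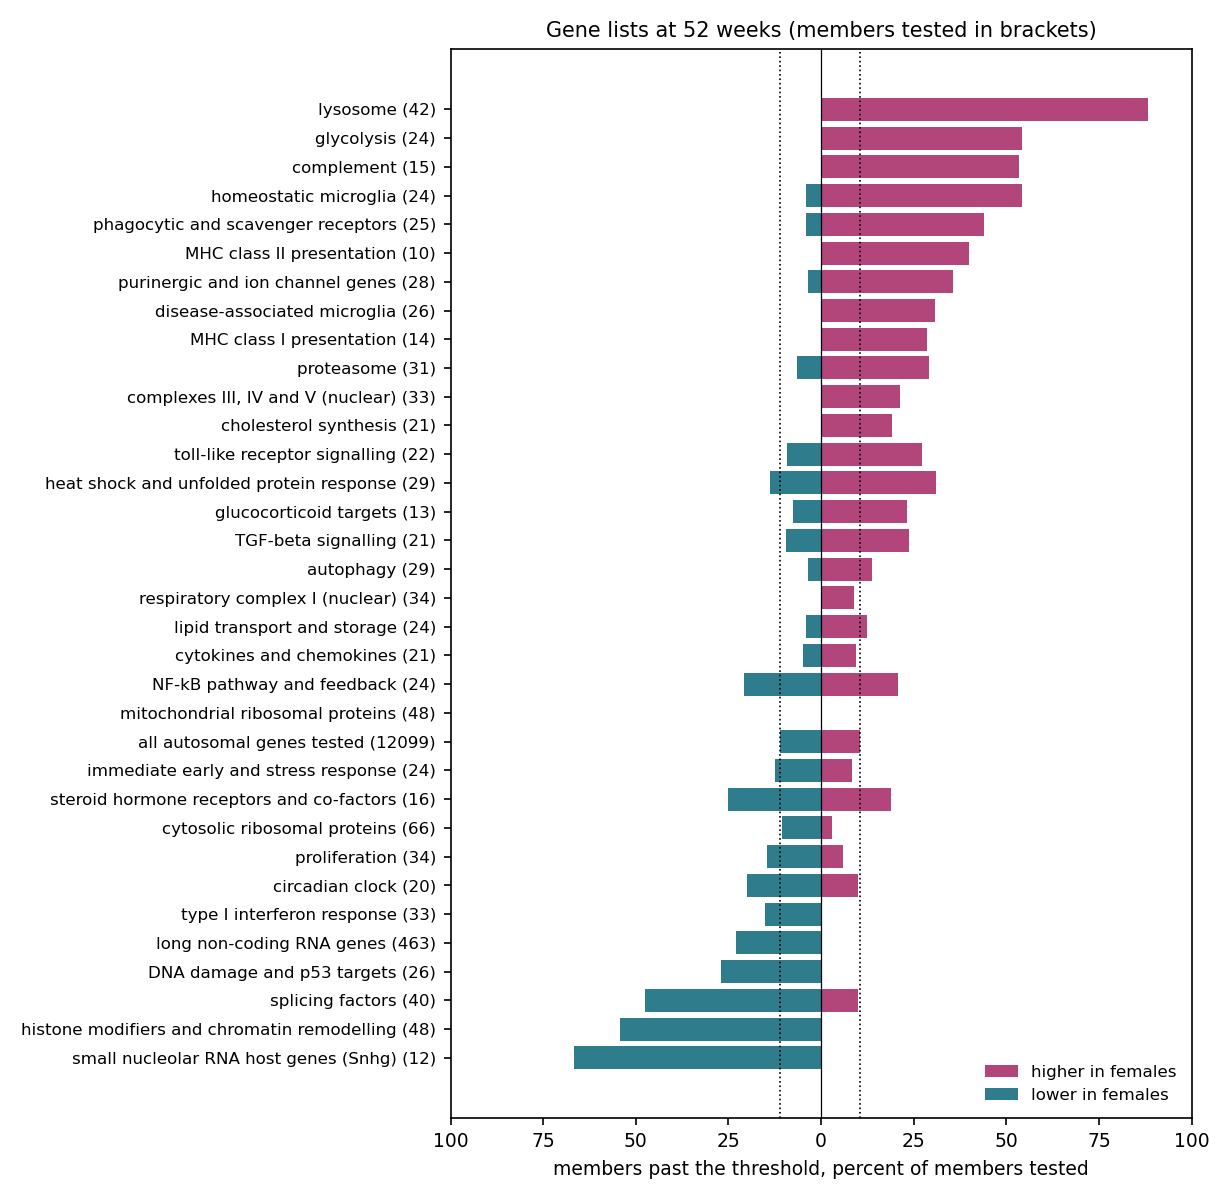
Percent of the tested members of each gene list that passed at 52 weeks, to the right where higher in females and to the left where lower, with dotted lines at the shares of all 12099 autosomal genes (10.6% and 11.1%). The lysosomal list reaches 88.1% higher and the small nucleolar RNA host genes 66.7% lower. Lists near 0, such as NF-kB, shift to the left under equal totals, as do autosomal genes as a whole.

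Genes called in either direction also differed in transcript length, GC content and level. The level is the normalized count itself, which the filter and the test used. Genes lower in females had longer transcripts (median 4545 bases) than genes higher in females (2894) or all genes (3340). Their median GC content was 47.5%, against 52.4% for genes higher in females. Their median level was 477 normalized counts, near that of all genes (474), against 2416 for genes higher in females. With the genes divided into 4 groups of equal size by transcript length, 20.6% of the group with the longest transcripts were lower in females and 5.04% higher, and of the group with the shortest 6.83% were lower and 12.5% higher. Of the most abundant of 4 groups by level, 29.3% were higher and 9.39% lower. Across genes, the log2 difference had a Spearman rho of -0.165 with transcript length and 0.179 with GC content (11818 genes), and 0.226 with level (12099 genes). Genes are not independent replicates and all these values share the same 10 libraries, so no p is given. The part of RNA or library quality in these trends was not tested.

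**Figure D4:**
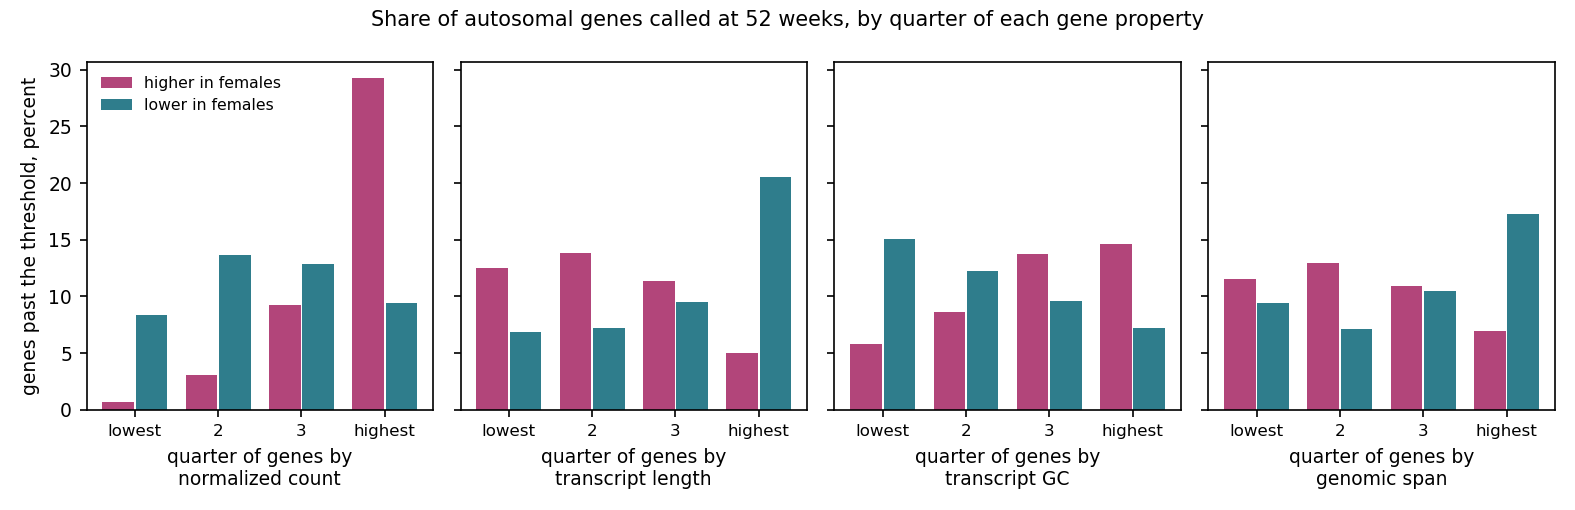
Percent of autosomal genes called higher or lower in females at 52 weeks within 4 groups of equal size ordered by normalized count, transcript length, transcript GC content and genomic span. Calls higher in females are most frequent in the most abundant group (29.3%), and calls lower in females in the group with the longest transcripts (20.6%), with the authors' scaling.

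The sex difference at 52 weeks was set beside those at the other ages, which share no library with it. At 8 weeks 1959 autosomal genes were called (16.2%), 953 higher in females (7.88%) and 1006 lower (8.31%), and 1053 were called at both ages with the same sign, 40.2% of the calls at 52 weeks and 53.8% of those at 8 weeks. Of the 2621 genes called at 52 weeks, 2349 (89.6%) had the same sign at 8 weeks. At 8 weeks the median log2 difference was 0.29 for genes higher in females at 52 weeks and -0.60 for those lower. At 104 weeks 44 genes were called (0.364%), 1513 of the 2621 (57.7%) had the same sign, and the medians were 0.03 and -0.09. The groups of the other ages held 3 libraries each, so counts of calls do not compare between ages, and the difference between ages was tested itself. Normalized totals at 8 weeks were 23.9 to 24.0 M in females and 21.4 to 21.9 M in males. At 104 weeks they were 23.7 to 23.8 M and 23.1 to 23.6 M. The centred median of the small nucleolar RNA host genes was above 0 in all males of 8 and 52 weeks and below 0 in every other library. The part of this shared offset in the signs shared with 8 weeks was not tested.

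The sex difference at 52 weeks differed from that at 104 weeks in 879 autosomal genes (7.27%), more positive at 52 weeks in 419 (3.46%) and more negative in 460 (3.80%). Under equal totals this split was 159 and 719, and with length and GC trends removed 524 and 277. Of the genes called at 52 weeks 751 (28.7%) were among them, and in 706 of these the sex difference was larger in size at 52 weeks. These genes were selected on the same 52-week values, which favours a larger size at that age. The 706 is therefore no measure of a change with age. With the authors' scaling, the change was positive in 10 of 24 homeostatic and 9 of 42 lysosomal genes, and negative in 15 of 48 chromatin genes, 12 of 40 splicing factors and 40 of 463 long non-coding RNAs. Tmem119 differed by 0.52 at 52 weeks and -0.26 at 104 weeks, a change of 0.78 (adjusted p = 0.00015). Neat1 differed by -2.76 and 0.57, a change of -3.33 (adjusted p = 0.00023). Chd7 differed by -1.29 and -0.24, a change of -1.04 (adjusted p = 0.00015). C3ar1 was higher in females by 0.60 at 52 weeks and by 0.60 at 104 weeks, where its adjusted p was 0.026.

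The sex difference at 52 weeks differed from that at 8 weeks in 49 autosomal genes (0.405%), more positive at 52 weeks in 33 (0.273%) and more negative in 16 (0.132%). The count was 20 without 8-week female replicate 1 and 30 without 52-week male replicate 4. Lars2 differed by 1.63 at 52 weeks, 0.03 at 8 weeks and -0.50 at 104 weeks, with a change from 8 weeks of 1.60 (adjusted p = 0.00078). Tmbim6, an inhibitor of cell death in the endoplasmic reticulum, was at 12896, 12120, 13136, 12694 and 13067 in the females and 8894, 8285, 7229, 7807 and 8692 in the males at 52 weeks. The females lay above the males at that age (0.65), and the difference was -0.37 at 8 weeks (adjusted p = 0.0029), a change of 1.02 (adjusted p = 6.8e-06). Itgb5 differed by 0.48 at 52 weeks, -0.05 at 8 weeks and -0.10 at 104 weeks, with a change from 8 weeks of 0.53 (adjusted p = 0.0013). Stab1, a scavenger receptor, differed by 0.21 at 52 weeks without passing (adjusted p = 0.14), while it was lower in 8-week females at -0.92 (adjusted p = 4.3e-05), a change of 1.13 (adjusted p = 0.00078). These 4 genes also differed between 52 and 104 weeks.

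**Figure D5:**
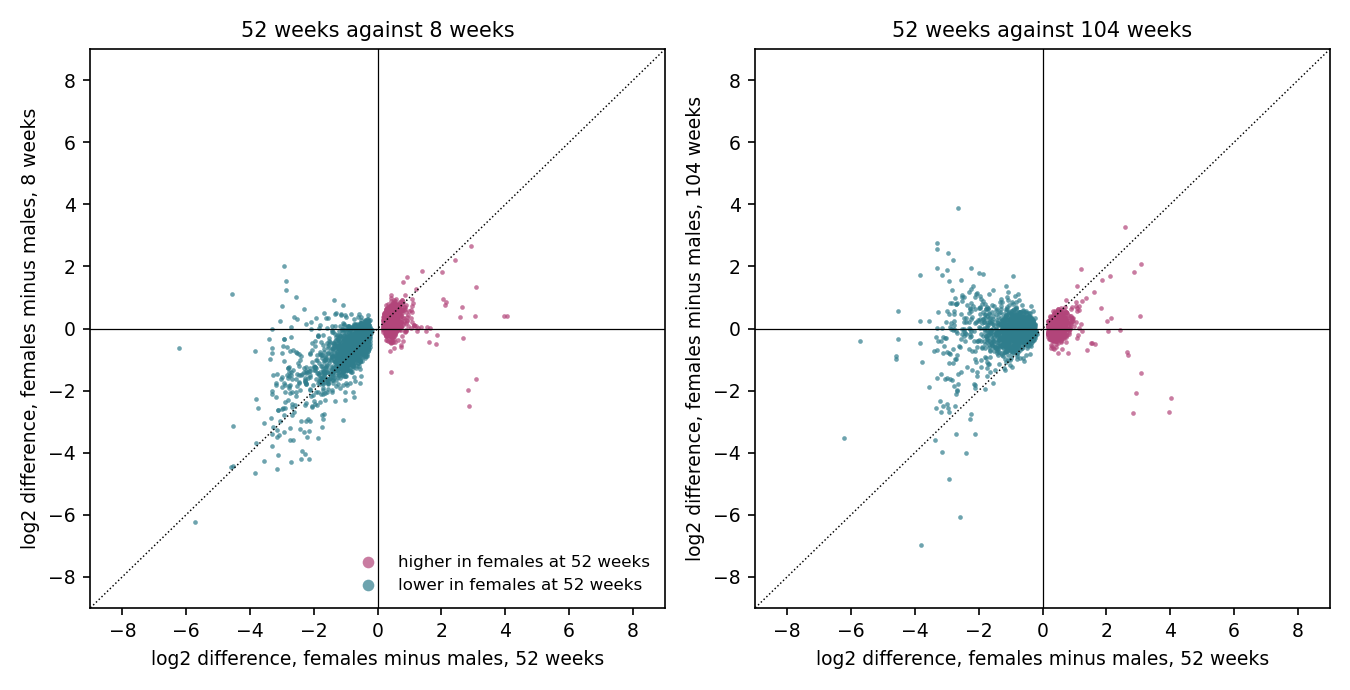
Each point is 1 of the 2621 autosomal genes called at 52 weeks, with its log2 difference, females minus males, at 52 weeks on the horizontal axis and at 8 weeks (left) or 104 weeks (right) on the vertical axis, and the dotted line marks equal differences. The same sign as at 52 weeks is found for 89.6% of the genes at 8 weeks and 57.7% at 104 weeks.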

How the data were processed

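Total RNA of sorted microglia was amplified with SMARTer v4 chemistry and made into Nextera XT libraries, per the labels' protocols. The deposited values are a signal, read counts per gene that the authors divided by 1 size factor per library. The submitters' processing notes name STAR 2.5.2, DESeq2 1.32.0, Trim Galore 0.4.3 and the build mm10. The counting tool, its strand setting and any gene filter are not given in these sources. Reads were recovered from the steps of the values for the count models, and 100% of values came out whole within 0.01 reads in each library. On these reads edgeR called 2561 autosomal genes.

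Of 18072 genes, 12552 had a value of 10 or more in at least 3 libraries. They were fitted with limma 3.58.1 (R 4.3.3) on log2(value + 1), with 6 group means over 22 libraries, trended empirical Bayes and two-sided tests, adjusted over all 12552 genes, with a threshold of 0.05. Fold changes are on this scale and understate changes of low genes. Alternatives used edgeR 4.0.16, DESeq2 1.42.0 and other scalings, filters and sample sets. Chromosomes, lengths and GC content came from GENCODE M21.

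Genes were named by rule: the largest changes without overlap, the smallest adjusted p among all genes, per list and per change between ages, and a set of known microglial genes. A few genes named by this rule are not reported here. The comparison, the gene lists and this rule were chosen with earlier results of these data known, so no list has a p of its own. The sources do not state that libraries came from separate animals, so p-values measure the spread between these samples, which may be technical. No 2 libraries of a group differed by so little as to be counted as 1.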

Additional observations from a re-analysis of the deposited data

Results flagged for a closer look

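In 6 of 148 groups of 5 libraries (4.05%), the highest or lowest library lay apart from the rest by Dixon's 95% criterion for 5 values (a gap above 0.71 of the range), and chance alone gives about 1 in 20. Male replicate 3 was the lone library in 4 of them, high for Ctsb at 141316 normalized counts and low for Snrnp70 at 1092, Snhg17 at 91.9 and Trip6 at 20.8. Male replicate 1 was low for Ash1l at 1697, and female replicate 6 was low for Calr at 27909.

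For named genes, the sex difference at 52 weeks differed from that at another age by the test of the difference itself (limma, adjusted p under 0.05), in 52 instances. Over all autosomal genes the shares were 0.405% against 8 weeks and 7.27% against 104 weeks. Many of the named genes were chosen by their 52-week values or by this same test. The 52 is therefore no measure of how common such changes are. The change is given as the log2 difference between females and males at 52 weeks minus that at the other age. Against 8 weeks it was 0.53 for Itgb5, 1.60 for Lars2, 1.02 for Tmbim6 and 1.13 for Stab1. Against 104 weeks, changes above 0 were 0.54 for Gaa, 0.38 for Lgmn, 0.42 for Man2b1, 0.75 for Olfml3, 0.90 for Slc2a5, 0.58 for Fcrls, 0.78 for Tmem119, 0.45 for Csf1r, 0.53 for C1qa, 0.47 for C1qc, 0.58 for Itgb5, 0.42 for Pkm, 0.70 for Hk2, 2.13 for Lars2, 1.31 for Cotl1, 1.36 for Bag3, 0.47 for Calr, 0.74 for Itm2c, 0.78 for Slc46a1, 0.43 for Rela, 0.58 for Tlr3, 0.54 for Unc93b1, 0.64 for Tapbp, 0.87 for Tmbim6, 0.77 for Stab1, 0.50 for Tgfbr1 and 0.41 for Kcnk13. Changes below 0 against 104 weeks were -1.04 for Chd7, -1.06 for Kmt2c, -1.37 for Tet3, -0.87 for Ash1l, -1.58 for Clk1, -0.55 for Hnrnpa2b1, -1.49 for Clk4, -0.72 for Snrnp70, -3.33 for Neat1, -3.05 for Snhg17, -3.58 for Snhg1, -2.02 for Smg1, -4.05 for Trip6, -2.77 for Vamp1, -2.28 for Mx2, -0.83 for Atf4, -1.53 for Ddit3, -3.49 for Nfkbiz, -1.42 for Apoe, -4.11 for Tnf and -1.06 for Per3. For Apoe, Tnf and Stab1 the sex difference at 52 weeks did not itself pass. These values come from the authors' scaling, and the groups at the other ages hold 3 libraries each.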

How the results depend on the processing

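The count of 2621 autosomal genes stayed within 1.5 times under every alternative run, from 2078 to 2577 with 1 library left out, and was 2582 and 2694 with pseudocounts of 0.25 and 8, 2389 without the filter, 2674 with TMM factors, 2561 with edgeR, 2909 with DESeq2 and 2922 with the 10 libraries alone. With reads thinned to 17.7 M per library, an alternative chosen after seeing the data like the removal of female replicate 2 with male replicate 3, it was 2534. The 49 genes whose sex difference differed from that at 8 weeks became 78 without the filter, 226 with DESeq2, 15 with length and GC trends removed, and 20 to 61 with 1 library left out. The 879 genes against 104 weeks ranged from 612 to 932 with 1 library left out. Genes higher in females numbered 6 for glycolysis and 3 for phagocytic receptors under equal totals, and 7 to 12 for the latter with 1 library left out. Splicing factors lower in females numbered 12 with length and GC trends removed. The causes of these changes were not tested. Apoe ranged from -0.39 to 0.074 with 1 library left out, above 0 without female replicate 4, and was 0.0087 without female replicate 2 and male replicate 3, neither past the threshold. Over 74 named genes and their alternatives, 1609 of 1628 values kept their direction and side of the threshold, and 63 of 64 called genes were called in each. Many of these genes were named for a small p or a large change in the same values, which favours calls that persist. These counts are therefore no measure for the 2621 genes as a whole.

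Replicate numbers shared between groups were not treated as pairs. At 52 weeks residuals of the 4 same-numbered pairs of a female and a male correlated at 0.015 to 0.046. The 21 pairs with different numbers correlated at -0.052 to 0.048. So few pairs cannot tell whether a number marks a shared litter or day. A replicate block gave 2184 genes at 52 weeks, 22 against 8 weeks and 562 against 104 weeks. Depth limits low genes such as C3, Trip6 and Bub1.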

Other observations

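Calls in gene groups of protein and energy turnover depended on the scaling, as did those of all autosomal genes. Under equal totals 454 of all 12099 autosomal genes were higher in females and 2348 lower. Of 31 proteasome genes 9 were higher in females (29%) and 2 lower, or none and 6 under equal totals. Of 34 nuclear genes of respiratory complex I 3 were higher and none lower, and of 33 genes of complexes III, IV and V 7 (21.2%) and none, beside 10.6% of all autosomal genes higher. Under equal totals these became none and none, and 1 and none, and with length and GC trends removed 15 and 17 were higher. Of 48 mitochondrial ribosomal proteins none was called with limma or edgeR and 1 was higher with DESeq2, while 4 had an unadjusted p under 0.05 with limma and 5 were higher with length and GC trends removed. Of 66 cytosolic ribosomal proteins, whose counts are uncertain because of processed copies in the genome, 2 were higher and 7 lower, or none and 8 under equal totals and 7 and 6 with length and GC trends removed. Of 29 autophagy genes 4 were higher and 1 lower, or 2 and 7 under equal totals.

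Lipid, hormone and growth factor groups were mixed. Of 21 cholesterol synthesis genes 4 were higher in females and none lower (median 0.39), or 3 and none under equal totals. Of 24 genes of lipid transport and storage 3 were higher and 1 lower, or 2 and 2 under equal totals. Of 16 steroid receptors and co-factors 3 were higher and 4 lower, or 5 and 1 with length and GC trends removed. Of 13 glucocorticoid targets 3 were higher and 1 lower, or none and 1 under equal totals. Of 21 TGF-beta signalling genes 5 were higher and 2 lower, or 1 and 4 under equal totals and 8 and 1 with length and GC trends removed. Of 26 DNA damage and p53 genes 7 were lower and none was higher, while 1 was higher with length and GC trends removed. Of 24 immediate early genes 2 were higher and 3 lower, or none and 6 under equal totals. Of 10 genes of MHC class II presentation 4 were higher and none lower, with a median of 0.10 that became -0.07 under equal totals.

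Marker lists of further cell types were examined at 52 weeks. Monocyte markers, 7 of 10 in the table, summed to 824 to 1164 normalized counts in the females and 706 to 1192 in the males, and markers of border-associated macrophages, 6 of 10, to 551 to 920 and 345 to 828. Neuronal markers, 11 of 11, summed to 115 to 304 and 95.1 to 217, and endothelial markers, 9 of 9, to 1006 to 1420 and 875 to 1373. None of the tested members of these 4 lists passed, and none of their markers in the table was at 0 in all 10 libraries.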
